A study of Rattus norvegicus with 4 samples.

Results

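The transcript described here is Alpl, which encodes tissue-nonspecific alkaline phosphatase, in rat liver 18 h after the bile duct toxicant alpha-naphthylisothiocyanate (ANIT). Its members are the 2 probes, of 1936 on the array, whose annotation gives Alpl as the single gene symbol, numbered 83 and 792 in the deposited table. Male Sprague-Dawley rats of 250 to 300 g received ANIT intraperitoneally at 75 mg/kg in olive oil (7.5 mg/mL), and control rats received the same volume of olive oil. Liver RNA of 3 rats was pooled for each treatment, and the 2 pools were labelled with cyanine dyes and hybridised together to 4 spotted cDNA arrays. ANIT was labelled with Cy5 on arrays 1 and 3 and with Cy3 on arrays 2 and 4. All arrays carried the same pools, so the treatment has 1 replicate. No test of the treatment is possible, and every SD below describes hybridisation only. With pooled whole liver, more cells of a type and more RNA per cell cannot be told apart.

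Alkaline phosphatases are glycoproteins held on the outer face of the plasma membrane by a glycosylphosphatidylinositol (GPI) anchor, and they remove phosphate from small molecules such as pyrophosphate and pyridoxal phosphate. The tissue-nonspecific form is made in liver, bone and kidney, and also in neutrophils. In liver it lies mainly on the bile canalicular face of hepatocytes, and its activity in serum is a clinical marker of cholestasis, the failure of bile flow. The arrays measured Alpl transcript and neither enzyme activity nor bile flow, which were not analysed here. The clone sequence behind each probe was not used here, so its place in the transcript is unknown.

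The gene's 5' end is shown to place the transcript in the genome, since the ratios themselves carry no sequence. RefSeq places the start of Alpl within chr5:155289736-155290035 of the rat assembly GRCr8, on the minus strand. The window runs from 250 bases before the annotated start to 50 bases after it. Capitals mark GGGCGG, the GC box, on either strand. Each run of capitals begins at the first match in it, and the longest run holds a pair of overlapping matches.

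Alpl promoter: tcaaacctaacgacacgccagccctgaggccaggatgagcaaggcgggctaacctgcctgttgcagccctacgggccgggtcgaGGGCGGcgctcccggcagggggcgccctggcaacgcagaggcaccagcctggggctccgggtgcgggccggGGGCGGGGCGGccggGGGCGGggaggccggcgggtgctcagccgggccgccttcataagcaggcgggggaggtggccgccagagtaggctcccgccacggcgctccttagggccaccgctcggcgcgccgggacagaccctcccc

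The window held 4 GC boxes, which start 166, 95, 90 and 80 bases before the annotated start. At least 1 GC box was present in 33.1% of 33469 rat promoter windows of this length, and 4 or more in 4.64%. The window was 76.3% G and C, against a median of 51.7% over all windows. On either strand it held no TTCNNNGAA (in 8.87% of windows), the palindrome read by STAT factors. It held no AGGTCA (16.2%), the core element of nuclear receptor sites, no TGACGTCA (1.83%), the cAMP response element, and no TATAAA (14.2%). The search covers these letters in this window alone, and Alpl has alternative first exons whose promoters were not searched.

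The question asked of the arrays was how Alpl transcript differed between the ANIT and the olive oil pools. Alpl stood 2.84-fold higher in the ANIT pool, with a mean log2 ratio of 1.5 ± 0.15 (SD between arrays of one dye orientation, n = 4 arrays). It was the 4th highest of 958 named genes when the probes of each gene were averaged, and both probes placed it above 2-fold. A gene is counted here when its mean ratio is at least 2-fold and its sign is the same on all 4 arrays, after each array is centred on the median of its 1936 probes. By that rule 12 genes (1.25%) were higher and 11 (1.15%) lower, or 17 and 7 on values as deposited, and Alpl was among the higher in both. Direction and log base are not stated in the table. ANIT over olive oil is the likely direction, since the titles name ANIT and it is listed in the second channel, and base 2 is an assumption. With natural logs the same Alpl values would be 4.5-fold. With the sign turned on all arrays Alpl would be at -1.5 on the log2 scale. Were the table a plain dye ratio, Alpl would be at 0.12 (1.09-fold), not counted, with 0 genes higher and 0 lower.

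As deposited, probe 83 read 1.06 on array 1, 2.08 on array 2, 0.82 on array 3 and 2.12 on array 4. Probe 792 read 1.40, 2.51, 1.11 and 2.15 on the same arrays. Every reading was above 0, and those with ANIT in Cy3 were about 1 log2 unit above those with ANIT in Cy5. The array medians moved the same way, at -0.53, 0.85, -0.53 and 0.83 for arrays 1 to 4. The 2.51 of probe 792 was the largest value of all 1936 probes on array 2.

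After centring, probe 83 had log2 ratios of 1.60, 1.24, 1.35 and 1.30 on arrays 1 to 4, and probe 792 had 1.93, 1.67, 1.64 and 1.33. All 8 readings lay above 1, the 2-fold line, and array 1 gave the highest reading of either probe. The mean was 1.37 ± 0.13 (2.58-fold) for probe 83 and 1.64 ± 0.22 (3.12-fold) for probe 792. These means ranked 17th and 9th of 1936 probes, of which 30 (1.55%) were at least 2-fold higher. Of the probes above probe 83, 3 had no single gene name, and 2 of those were also above probe 792. Probes of Por (1.85, 1.70 and 1.55), Slc38a2 (1.63) and Slc38a3 (1.47) also lay above probe 83. The Por probes at 1.85 and 1.70 were above probe 792 as well. As genes these ranked below Alpl, since a gene is the mean of its probes, and another Por probe had 0.055.

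**Figure D1:**
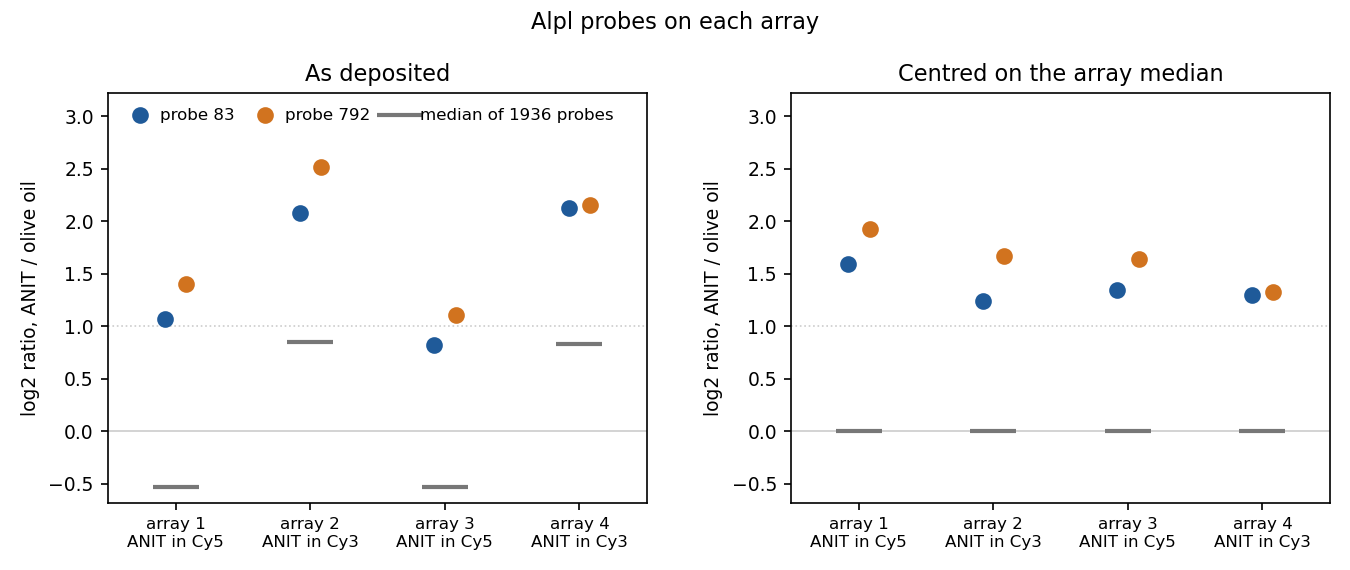
Log2 ratio of ANIT over olive oil (y axis) for Alpl probes 83 and 792 on each of 4 arrays (x axis, with the dye that labelled ANIT), as deposited on the left and centred on the right. Points are single readings, grey bars are the median of 1936 probes and the dotted line is 2-fold; all 8 centred readings lie between 1.24 and 1.93.

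Probe 792 was above probe 83 on every array, by 0.33, 0.43, 0.29 and 0.030 on arrays 1 to 4. The mean gap of 0.27 exceeded its SD within dye orientation (0.20), and array 4 gave the smallest gap. Of 261 genes with exactly 2 probes, 53 (20.3%) had a wider gap than Alpl, and the median gap was 0.12. Among the 12 of these genes with a probe at least 2-fold from 0 either way, 6 had a wider gap and 5 a narrower one. The widest was 2.51, for the carbonic anhydrase gene Car2. Both probes were at least 2-fold higher for 4 genes with exactly 2 probes, namely Alpl, the cytochrome P450 gene Cyp1a2, the bile acid-responsive repressor gene Nr0b2 and the cytokine signalling gene Stat3.

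The readings of Alpl repeated less closely than those of most probes. Between the arrays with ANIT in Cy5, array 1 exceeded array 3 by 0.25 for probe 83 and by 0.29 for probe 792. Between the arrays with ANIT in Cy3, array 2 exceeded array 4 by 0.34 for probe 792, whereas probe 83 differed by -0.060. The SD of probe 792 was the 56th largest of 1936, and that of probe 83 the 339th, against a median of 0.078. The ratio of probe 83 was 10.7 times its SD and that of probe 792 7.33 times, which describes repeat hybridisation and not the treatment. These SDs also leave out the centred difference between dye orientations, 0.20 for probe 83 and 0.29 for probe 792.

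Where Alpl stood among the genes depended on the dye. With ANIT in Cy3, the Alpl mean of 1.38 (2.61-fold) was the highest of 958 genes, 6 of which (0.626%) reached 2-fold. With ANIT in Cy5, its mean was higher at 1.63 (3.09-fold), yet it ranked 10th, and 59 genes (6.16%) reached 2-fold. By array the gene ranked 9th, 1st, 16th and 2nd on arrays 1 to 4. It was 1 of 5 genes (0.522%) that were at least 2-fold higher on each of the 4 arrays, with Cyp1a2, Creld2, Sqstm1 and the metallothionein gene Mt1.

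**Figure D2:**
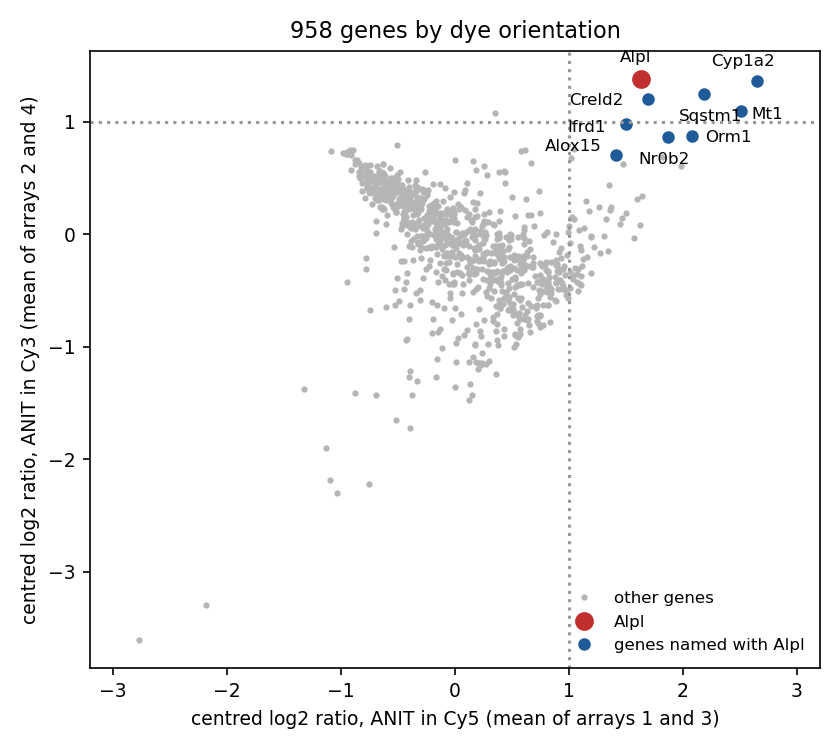
Mean centred log2 ratio of 958 genes with ANIT in Cy5 (x axis, arrays 1 and 3) and with ANIT in Cy3 (y axis, arrays 2 and 4); each point is a gene and dotted lines mark 2-fold. Alpl (red, 1.63 and 1.38) is the highest gene on the y axis and the 10th on the x axis; blue points are its neighbours in rank and the genes most like it.

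The difference between dye orientations as deposited, Cy5 less Cy3, was -1.16 for probe 83 and -1.08 for probe 792. Both lay near the median of all probes, -1.25, in a range of -3.30 to 0.36. Cyp1a2 (-0.085), Mt1 (0.041) and Sqstm1 (-0.43), the genes above Alpl, had differences closer to 0. Over all probes, opposite orientations correlated at -0.383 to -0.370 (Pearson's r across probes, which are not independent), and arrays of the same orientation at 0.958 and 0.979. By Spearman's rank correlation, opposite orientations had -0.609 to -0.600 and arrays of the same orientation 0.953 and 0.977. What sets the difference between orientations was not tested.

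The 200 probes of other genes or no name that lay nearest in this difference were taken for each Alpl probe. Of those nearest to probe 83, 0 were above it, and the highest of them had 1.2. Probe 792 likewise had 0 of 200 above it, with the next at 1.45. Over all 1936 probes, 0.878% were at or above probe 83 and 0.465% at or above probe 792. Counts of 0 in 200 are near those shares and set the Alpl probes apart little. Relative to the medians of those neighbours, 0.020 and 0.051, the ratios of probes 83 and 792 were 1.35 and 1.59. Both Alpl probes were among the 484 probes with differences from -1.24 to -0.28, of which 15 had means at least 2-fold higher. At differences from -3.30 to -2.18, 0 of 484 did.

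**Figure D3:**
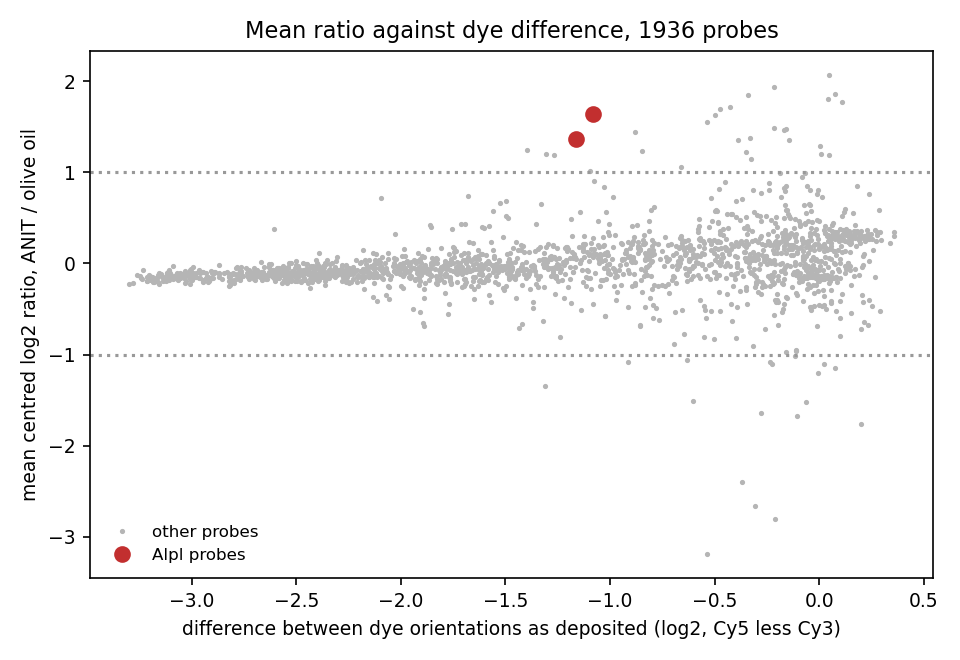
Mean centred log2 ratio (y axis) of 1936 probes against their difference between dye orientations as deposited (x axis, log2); dotted lines mark 2-fold either way. The Alpl probes (red, 1.37 and 1.64) lie above every one of the 200 probes nearest to each of them on the x axis, apart from each other. Over all probes, 0.878% lie at or above probe 83 and 0.465% at or above probe 792.

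In the order of mean ratios, Cyp1a2 (2.0), Mt1 (1.80) and Sqstm1 (1.71), which encodes an autophagy adaptor, stood above Alpl. They exceeded it by 0.50, 0.30 and 0.21, more than the combined SDs of 0.15, 0.17 and 0.15. Mt1 and Sqstm1 were above Alpl on the 2 arrays with ANIT in Cy5 and below it on the 2 with ANIT in Cy3. Cyp1a2 was above it on 3 of 4 arrays. The order of these genes against Alpl thus depended on the dye, which the SDs leave out. Next below came Orm1 (1.48), an acute phase plasma protein gene, Creld2 (1.45), an endoplasmic reticulum stress gene, and Nr0b2 (1.36). Their distances of -0.028, -0.056 and -0.14 from Alpl were within the combined SDs of 0.17, 0.24 and 0.18, so Alpl and these genes have no settled order either.

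Likeness to Alpl was measured as the root mean square difference from its centred log2 ratios over 4 arrays. Creld2 was nearest at 0.14, with 1.87, 1.27, 1.52 and 1.14 on arrays 1 to 4 against 1.76, 1.45, 1.49 and 1.31 for Alpl. It was followed by Ifrd1 (0.30), Nr0b2 (0.41), Sqstm1 (0.42) and the lipoxygenase gene Alox15 (0.51), while the median of 957 genes was 1.60. The 6th gene, Orm1, was as near as Alox15 at 0.51. All 5 were below Alpl on both arrays with ANIT in Cy3. With 4 arrays of the same pools, likeness describes size and dye response, not behaviour across conditions.

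**Figure D4:**
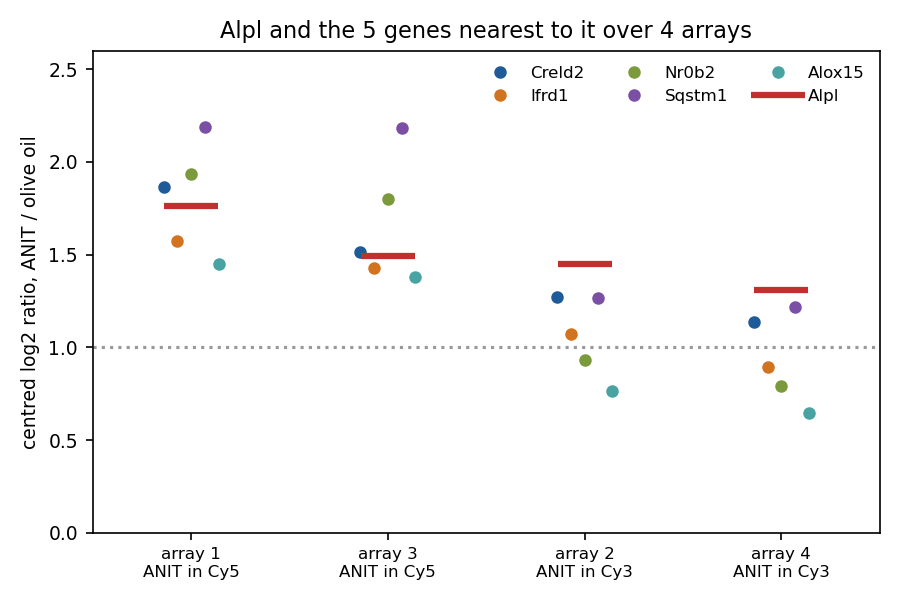
Centred log2 ratio (y axis) of Alpl (red bars) and the 5 genes most like it (points) on each array (x axis, grouped by the dye of ANIT); the dotted line is 2-fold. On arrays 2 and 4 Alpl (1.45 and 1.31) is above all 5 genes, and on arrays 1 and 3 Sqstm1, Nr0b2 and Creld2 are above it.

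Alpl was the only measured gene of its own family. Of 6 symbols listed for alkaline phosphatases, the others had no named probe, so whether the probes also bind the intestinal or placental forms could not be set against those genes. None of 29 listed acid phosphatases, nucleotide phosphodiesterases and other enzymes was measured either. Of 12 measured tyrosine and dual specificity phosphatase genes, 0 were counted in either direction. Ptpn2, a phosphatase of cytokine receptor signalling, had 0.41, Ptpn21 0.28, Ptprs -0.23 and Cdc25b -0.18, and the median was 0.028. Of 6 serine/threonine phosphatase genes, 0 were counted, the catalytic subunit gene Ppp1cb had 0.42, and the median was 0.0094. The signs of Cdc25b and Ppp1cb followed the dye. Over all 958 genes the median was -0.040, with 1.25% counted as higher and 1.15% as lower. At those shares a short list is likely to hold 0 counted genes, so counts of 0 here and below say little about the lists. Values as deposited are 0.15 higher throughout, so ratios between -0.15 and 0 change side without centring.

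Among 6 measured genes of other serum markers of liver injury and cholestasis, 0 were counted, and their median was -0.062. The shares counted over all genes were 1.25% higher and 1.15% lower. Ggt1 encodes gamma-glutamyl transferase, which is read beside alkaline phosphatase in cholestasis. It had -0.81, 0.56, -0.78 and 0.64 on arrays 1 to 4, so that its sign followed the dye, with a mean of -0.097 ± 0.043. Its difference between orientations was -2.77, in the range where no probe reached 2-fold. Got1, the cytosolic aspartate aminotransferase, had -0.39, -1.25, -0.0061 and -0.50, all below 0 but with a mean of -0.54 ± 0.43. The glutathione transferase gene Gsta2 had 0.69 ± 0.069 and the paraoxonase gene Pon1 -0.20 ± 0.047.

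Genes for apical proteins of hepatocytes and for GPI anchoring were not counted, near the shares over all genes (1.25% higher, 1.15% lower). Of 4 measured genes for apical proteins of hepatocytes, the linker protein gene Ezr had 0.24, Dpp4, an ectopeptidase, -0.090 and Abcc2, the canalicular export pump, -0.23. The signs of Ezr, Dpp4 and Abcc2 followed the dye, and the list median was -0.094. Of 8 genes for GPI anchoring and GPI-anchored proteins, 0 were counted, and their means lay between -0.21 (Tfpi, a coagulation inhibitor) and -0.048. Pgap2, which acts in GPI anchor remodelling, had -0.18, and Ncam1 and the prion protein gene Prnp had -0.12 each. The signs of Tfpi, Pgap2, Ncam1 and Prnp followed the dye. The median of the 8 genes was -0.10, with a median difference between orientations of -2.16. That lies next to the range of -3.30 to -2.18, where 0 of 484 probes were at least 2-fold higher.

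Genes that handle the enzyme's substrates and products were not counted either, again near the shares over all genes (1.25% higher, 1.15% lower). For phosphate and pyridoxal phosphate, 5 genes had a median of -0.12. Slc17a1, a phosphate transporter, had -0.51, the pyridoxal kinase gene Pdxk -0.16, the bone matrix protein gene Spp1 -0.12 and the ethanolamine kinase gene Etnk1 -0.059. For adenosine and AMP, 7 genes had a median of -0.11. The nucleoside transporter genes Slc28a2 and Slc29a1 were lowest, at -0.83 ± 0.057 and -0.64 ± 0.076, and below 0 on all 4 arrays. The adenosine receptor gene Adora2a had -0.17, and the purine phosphorylase gene Pnp -0.11 from probes at -0.34 and 0.11. The signs of Pdxk, Spp1, Etnk1, Adora2a and Pnp followed the dye.

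Of 20 measured genes of retinoid, glucocorticoid, cAMP and cytokine signalling, pathways that regulate alkaline phosphatase in cultured cells, Stat3 alone was counted. It had 1.87, 0.72, 1.77 and 0.66 on arrays 1 to 4, with a mean of 1.25 ± 0.059 (2.38-fold). It was above Alpl on arrays 1 and 3 and below it on arrays 2 and 4. Aldh1a1, which makes retinoic acid, had 0.90 ± 0.16, the interleukin receptor gene Il1r1 0.56 and the retinoid receptor gene Rxrg 0.56 from probes at 0.28 and 0.83. The sign of Rxrg followed the dye. The median was -0.0030, and over all genes 1.25% were counted as higher. In the list of 9 bile acid genes, Nr0b2 was the member counted, at 1.36 ± 0.098. The bile acid receptor gene Nr1h4 had -0.68 and Cyp7a1, which limits bile acid synthesis, -0.49, both negative on every array. The uptake transporter gene Slc10a1 had -0.51, but its sign followed the dye (0.10, -1.13, 0.13 and -1.14 on arrays 1 to 4). The list median was -0.23.

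Markers of the cells that could hold Alpl were read beside it. Of 6 hepatocyte genes, the fibrinogen gene Fgg had 0.79, Apoa1 -0.68, and Ttr and Tf -0.20 each, with a median of -0.17 and 0 counted. Of 24 listed neutrophil genes 3 were measured, and S100a9 had 0.038, Cyba -0.064 and Il1b -0.10. Of 5 cholangiocyte genes, Clu had 0.34, Anxa5 -0.18, Spp1 -0.12 and Ggt1 -0.097. Of 6 endothelial genes, Icam1 had 0.33, Kdr -0.25, Cdh5 -0.21 and Tek -0.038. Of 9 stellate cell and fibroblast genes, Ngfr had -0.71 ± 0.99, Col1a1 -0.58, Mmp14 0.44 and Fn1 0.38. None of these was counted, and the list medians were -0.064, -0.097, -0.038 and -0.11 in that order. The shares counted over all genes were 1.25% higher and 1.15% lower. The sign followed the dye for Ttr, Tf, S100a9, Cyba, Il1b, Clu, Spp1, Ggt1, Icam1, Tek and Fn1. The median difference between orientations was -2.13 for neutrophil and -2.66 for cholangiocyte genes. The part of these cells in the Alpl ratio was not tested. No macrophage or lymphocyte gene was measured. Of 8 listed red cell genes only Car1 was measured, and it was counted as lower (-1.35).

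**Figure D5:**
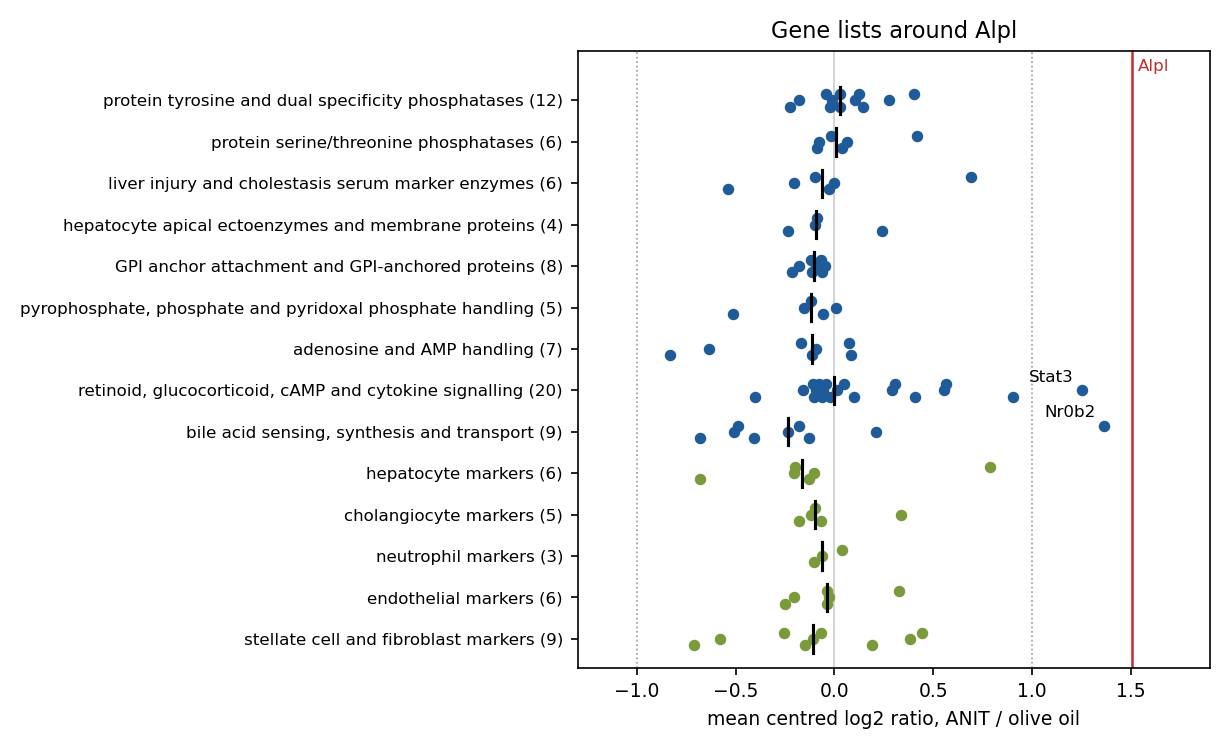
Mean centred log2 ratio of ANIT over olive oil (x axis) for the measured genes of each list (y axis, number of genes in parentheses); each point is a gene, black bars are list medians, blue lists are pathways and green lists are cell type markers. Dotted lines mark 2-fold and the red line marks Alpl (1.5), to the right of every plotted gene; the nearest are Nr0b2 (1.36) and Stat3 (1.25), and points between -0.15 and 0 change side without centring.

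Of the housekeeping controls, Hprt1 had a mean log2 ratio of 0.086 ± 0.027 and Actb 0.040 ± 0.068. No named probe carried Gapdh. Against Hprt1 and Actb in place of the array median, Alpl had 1.44 (2.72-fold).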

How the data were processed

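The deposited table holds, for 1936 probes and 4 arrays, 1 log ratio per spot as the authors deposited it, with the base assumed to be 2. How the authors corrected background or normalized the arrays, which base they used and which pool is the numerator is not given in the labels. No entry of the deposited log2 table was missing, and its columns are not centred on their medians. They were read as already turned to ANIT over olive oil. This reading was chosen after values were seen, and the table does not settle it. Across all probes, arrays of opposite dye correlated negatively, with Pearson's r of -0.383 to -0.370 and Spearman's rank correlation of -0.609 to -0.600. The largest values nevertheless kept their sign. The sign rule for counting genes rests on the same reading.

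Single symbols were available for 1432 probes, 19 had several and 485 were not listed. Symbols were updated through Entrez identifiers to RefSeq (GRCr8), giving 958 genes. Arrays were centred on their medians, probes of a gene averaged, and arrays averaged within and then over dye orientations. Named genes were Alpl, the 3 genes on each side in rank, the 5 most alike, the counted and up to 4 largest members of each list, and housekeeping genes. Alpl and the 19 lists were chosen with earlier results of these data known, and support nothing independently. The counting rule was tested on simulated data. Alternatives concerned centring, scaling, arrays, probes, direction, log base and size. Python 3.11.15, numpy 2.4.6, pandas 2.3.3 and matplotlib 3.10.9 were used. Spot brightness was not analysed here.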

Additional observations from a re-analysis of the deposited data

How the results depend on the processing

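The precision is limited by the number of arrays and by 1 pair of pools. Of 15 alternatives for the Alpl gene ratio, 13 left it at least 2-fold higher. With base 2 kept, these ran from 1.37 (the probe with the smaller SD) to 1.66 (as deposited). Values read as natural logs gave the highest of the 13, at 2.17. With each array left out in turn, Alpl had 1.44 to 1.57, probe 83 had 1.31 to 1.43 and probe 792 had 1.56 to 1.73, and 12 to 13 genes were higher and 11 lower. As deposited, probe 83 had 1.52, and 17 genes were higher and 7 lower. Read as a dye ratio (arrays 2 and 4 turned in sign), Alpl had 0.12 (0.10 for probe 83, 0.14 for probe 792), with 0 genes higher and 0 lower. With the sign turned on all arrays, Alpl had -1.50, probe 83 -1.37 and probe 792 -1.64. Natural logs gave 2.17 for Alpl, 1.97 for probe 83, 2.37 for probe 792 and 27 higher genes. With ANIT in Cy5 alone, 59 genes were higher and 7 lower, and with ANIT in Cy3 alone 6 and 36. At 1.5-fold there were 34 and 21 and at 3-fold 3 and 4, without Alpl at 3-fold. Among genes, Alpl ranked 4 or 5 in these settings, apart from 7 with the probe of smaller SD, 1 and 10 in the single orientations, 441 as a dye ratio and 955 with the sign turned. Each log ratio already pairs the 2 pools on an array, and no paired test was possible because all arrays carried 1 pair of pools.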
